A study of Caenorhabditis elegans with 2 samples.

Results

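The regions described here are the MRG-1 binding sites called on chromosome IV of Caenorhabditis elegans. They are all rows of the deposited peak list that lie on chromosome IV, chosen by chromosome name alone, and number 655 of the 3782 peaks in the list, or 17.3%. Binding was measured by ChIP-seq, in which chromatin is precipitated with an antibody and the recovered DNA is sequenced, here with an affinity-purified rabbit polyclonal antibody against MRG-1. There was 1 ChIP library beside 1 of input DNA. Both came from hermaphrodites of the strain fem-2(b245), whose genotype is fem-2(b245)III, labelled as young adults that contain a germline and raised at 20 °C. The labels are at odds on the stage, since their growth protocol describes gravid animals, which are older. Animals were harvested in bulk and ground whole, so chromatin of the germline and of all somatic tissues entered the same extract. The peak list is that of the ChIP library, which had no replicate, and no condition was compared. The values below describe 1 list, and the intervals given for shares and medians cover counting error only.

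MRG-1 is the worm member of the MRG15 family, proteins whose chromodomain recognises nucleosomes with histone H3 methylated at lysine 36, a mark laid down over transcribed genes. In the worm it is needed for the development of germ cells. The fem-2 gene encodes a protein phosphatase of the pathway that directs male development and sperm formation, and b245 is a temperature-sensitive allele. Worm autosomes have a centre rich in conserved and widely expressed genes, with little recombination, and 2 arms with more recombination and more repeats. Chromosome IV is also known for the genes of the germline small RNAs called piRNAs (21U-RNAs), which lie mostly in broad clusters of this chromosome. In the RefSeq gene table for assembly WBcel235, 14714 of 15363 piRNA genes, or 95.8%, are on chromosome IV. The peaks are on a different build, so neither piRNA genes nor any other genes were placed against the peaks here. No sequence under a peak is shown for the same reason.

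Peaks on IV ran from 118801 to 17461695 in coordinates of WormBase build WS220, and no neighbouring peaks overlapped. On the other 4 autosomes the first peak started between 4021 and 57383, nearer to the left end than on IV. The end of the last peak was taken as the end of the chromosome, which is a lower bound. Cutting this length of 17.5 Mb into 3 equal segments gave a left segment (1 to 5820565), a middle segment (5820566 to 11641130) and a right segment (11641131 to 17461695). A peak belonged to the segment that held its midpoint. The left and right segments are also called arms below. Their limits come from equal lengths and not from recombination or gene content, so they need not match the arms and centre described above.

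The left segment had the most peaks and the middle segment the most covered sequence. The left segment held 279 peaks, or 42.6% of those on IV (95% exact Clopper-Pearson interval 38.8 to 46.5%), a density of 47.9 peaks per Mb. The middle segment held 197 peaks (30.1%, interval 26.6 to 33.7%), at 33.8 per Mb. The right segment held 179 peaks (27.3%, interval 23.9 to 30.9%), at 30.8 per Mb. The intervals of the middle and right segment overlapped, and that of the left segment stood above both. They treat each peak as independent although peaks lie in clusters, so whether they overlap is no test. Covered length followed another order. Peaks lay over 23.3% of the middle segment, 17.9% of the left and 13.6% of the right, so that the middle segment, with fewer peaks than the left, carried 42.5% of all covered bases on IV. The left segment carried 32.6% of them and the right segment 24.9%. From the left end, 50% of the covered length had been passed at position 8419706, 48.2% of the way along the chromosome. By position 13522791, at 77.4% of the way, 90% had been passed, which left few covered bases for the rest of the right arm. The order of the numbers depends on whether close peaks count separately: once all peaks within 5 kb of a neighbour had been joined, the middle segment had the largest share of the resulting regions, at 41.4%, against 35.4% in the left and 23.2% in the right.

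Among peaks as deposited, those of the middle segment were the widest, a difference that shrank once close peaks were joined. The median peak was 6260 bp wide there (95% order-statistic interval 5078 to 6879 bp), 2124 bp in the left segment (1879 to 2489 bp) and 2731 bp in the right segment (2403 to 3404 bp). As deposited, the median of the middle was thus 2.95 times that of the left and 2.29 times that of the right. The middle 50% of widths ran from 2866 to 9072 bp in the middle segment, from 1361.5 to 4684 bp in the left and from 1541.5 to 6224.5 bp in the right, so the distributions overlapped widely. The median over all 655 peaks was 3047 bp, and the range 963 to 30324 bp. Peaks over 5 kb made up 57.9% of the middle segment (114 peaks), 32.4% of the right (58) and 22.6% of the left (63). These 235 broad peaks were 35.9% of the peaks on IV and held 70.7% of the covered bases. At the other end, peaks of 1500 bp or less numbered 87 in the left segment (31.2%), 43 in the right (24%) and 16 in the middle (8.12%). Part of the difference rests on peaks that nearly touch. After joining of neighbours within 1 kb, the median became 7193 bp in the middle, 6206.5 bp in the right and 3510 bp in the left. Joining of neighbours within 5 kb brought all segments close together, at 9065 bp in the middle, 8330 bp in the right and 7953 bp in the left.

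**Figure D1:**
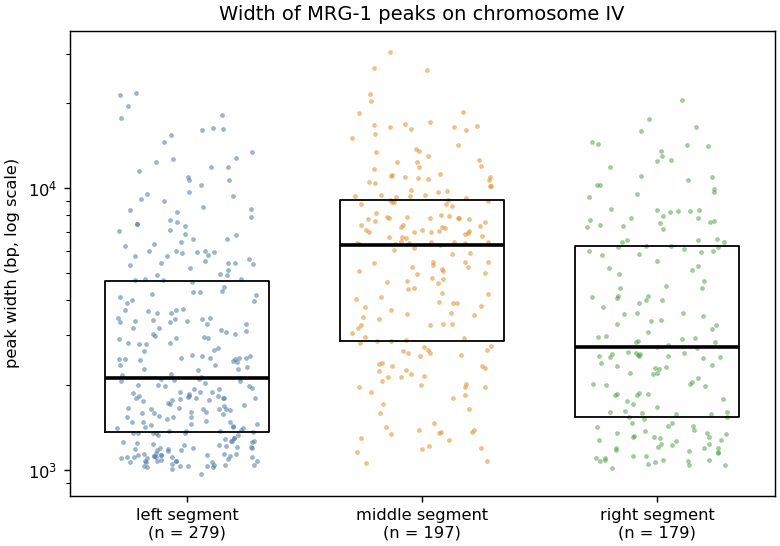
Width of each MRG-1 peak on chromosome IV (points, log scale in bp) by segment of the chromosome; boxes span the first to the last quartile and the thick line is the median. The medians stand at 2124 bp in the left, 6260 bp in the middle and 2731 bp in the right segment, while narrow and broad peaks occur in all of them.

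The broadest single peaks were in the middle segment. The widest spanned 7770458 to 7800781 (30324 bp), followed by 11116148 to 11142766 (26619 bp) and 10362386 to 10388709 (26324 bp). The next in the middle segment were 10918893 to 10940454 (21562 bp) and 7543555 to 7563974 (20420 bp). In the left segment the widest were 377603 to 399367 (21765 bp) and 5353978 to 5375320 (21343 bp), followed by 4792917 to 4812474 (19558 bp), 3032712 to 3050881 (18170 bp) and 4650475 to 4668189 (17715 bp). In the right segment the widest was 12355094 to 12375695 (20602 bp). Next came 16849607 to 16867241 (17635 bp), 12138231 to 12154656 (16426 bp), 13776056 to 13791964 (15909 bp) and 15033597 to 15048164 (14568 bp). All but 2 of these 5 lay in the outer stretch of the arm where peaks were scarce, described below. The 3 narrowest peaks of IV were in the arms, at 2207418 to 2208380 (963 bp), 2518435 to 2519444 (1010 bp) and 13261552 to 13262566 (1015 bp). Peaks of 10 kb or more numbered 40 in the middle segment, 21 in the left and 18 in the right.

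The authors' score, whose scale the file does not state, went with width but did not order the broadest peaks. It ran from 51.13 to 3220.27 on IV, and 152 of the 655 peaks had exactly 3100, with 7 above. The median score was 2301.27 in the middle segment, 557.65 in the right and 324.47 in the left. In the middle, 38.6% of the peaks scored 3100 or more, compared with 22.9% in the right and 15.1% in the left. Across peaks, width and score had a Spearman rho of 0.869 in the left segment (279 peaks), 0.895 in the right (179) and 0.516 in the middle (197). Scores tied at exactly 3100 numbered 41 in the left, 40 in the right and 71 in the middle. What these ties do to the difference in rho was not tested. These are descriptions of peaks from 1 library, called and scored together. None of the 146 peaks of 1500 bp or less scored 1000 or more, and their highest score was 355.51. Among the 79 peaks of 10 kb or more, 44 scored 3100 or more and 16 scored under 1000. The widest peak of IV, in the middle segment, had a score of 443.09, and the second widest 389.6. The widest of the left segment, at 377603, had 3100, whereas the left-segment peaks at 4792917 and 3032712 had 216.6 and 142.5. In the right segment, the peaks at 16849607, 13776056 and 15033597 all had 3100, while that at 12355094 had 378.7 and that at 12138231 had 591.67.

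Covered length in 250 kb bins showed where along the chromosome these peaks lay. Over 70 bins, of which the last was 212 kb long, the median bin was 17.8% covered and the mean was 18.3% ± 9.92 (SD over 70 bins). Bins of the middle segment had a median of 23.2% and ran from 8.38 to 42.4%. Bins of the left segment had a median of 18.6% and the narrowest range, from 5.39 to 29.2%. Bins of the right segment had the lowest median, 12.5%, and the widest range, from 0 to 43.8%. The right segment thus contained both the most and the least covered bins of the chromosome. Of the 16 bins under 10%, 10 were in the right segment and 3 in each other segment, and of the 7 bins over 30%, 5 were in the middle segment and 2 in the right.

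**Figure D2:**
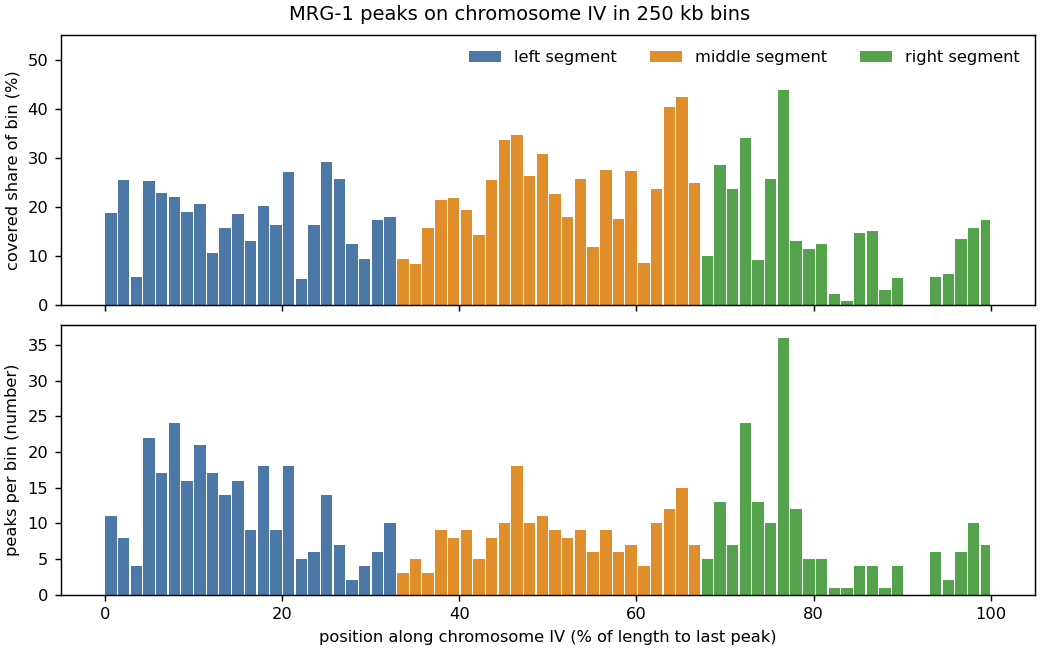
Covered share (upper panel, %) and number of peaks by midpoint (lower panel) in 250 kb bins along chromosome IV, with position as % of the length to the last peak and colours for the segments. The most covered bin, at 43.8% with 36 peaks, is in the right segment, and each bin to its right is 17.3% covered or less, including 2 with no peak.

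The most covered bin, 13250001 to 13500000, was 43.8% covered by 36 peaks. The next were 11250001 to 11500000 (42.4%, 15 peaks) and 11000001 to 11250000 (40.3%, 12 peaks), which adjoin each other at the right edge of the middle segment. They were followed by 8000001 to 8250000 (34.8%, 18 peaks) and 12500001 to 12750000 (34.1%, 24 peaks). As deposited, the peaks of highly covered bins differed in width. In the bin at 13250001 the median peak was 1486 bp wide, whereas in the adjoining pair at 11000001 and 11250001 it was 6537 and 6461 bp. Peaks that nearly touch count separately in these bins, such as 4 at 13296365 to 13312599 and 5 at 11310387 to 11346355. Widths per bin were not recalculated with such peaks joined. The 5 least covered bins were all in the right segment. Those at 15750001 to 16000000 and 16000001 to 16250000 held no peak. That at 14500001 to 14750000 was 0.928% covered, that at 14250001 to 14500000 was 2.33% covered and that at 15250001 to 15500000 was 3.02% covered, each by 1 peak. Across bins, the number of peaks and the covered share had a Spearman rho of 0.716 (70 bins), and 0.588 within the left segment (23 bins), 0.857 within the middle (24) and 0.821 within the right (23). Covered shares of neighbouring bins went together only loosely, with a Pearson r of 0.405 over 69 pairs of neighbours. That value includes the differences in level between segments, and some neighbours differed widely, such as 34.1% at 12500001 and 9.16% at 12750001. All bins share 1 library.

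Spacing of peaks as deposited differed between the middle and both arms. The median gap between neighbouring peaks was 13609 bp in the middle segment, 2144.5 bp in the left and 2353 bp in the right. In the middle segment, gaps of 10 to 100 kb were the commonest class, at 53.8% of 197 gaps. That class made up 31.7% of 278 gaps in the left segment and 27.9% of 179 in the right. Gaps under 1 kb were 39.7% of the gaps in the right segment, 32.7% in the left and 18.3% in the middle. Joining of peaks less than 1 kb apart would remove these, 91 in the left, 36 in the middle and 71 in the right. Of the larger gaps, those of 1 to 10 kb numbered 94, 50 and 46, and those of 10 to 100 kb 88, 106 and 50. Median gaps were not recalculated with close peaks joined, so how much of their difference rests on splitting was not tested. Peaks in runs, defined as neighbours less than 1 kb apart, made up 62.6% of the peaks of the right segment (112), 53% of the left (148) and 32% of the middle (63). Most runs were short, with a median of 2 peaks in each segment. The largest number was 6 peaks, reached by 2 runs. The one at 4372509 to 4397111 spanned 24.6 kb and was 96.4% covered, and the one at 12114372 to 12154656 spanned 40.3 kb and was 98.2% covered. By span the longest run lay in the middle segment, with 2 peaks over 40.9 kb. Whether peaks of such a run are separate sites or pieces of 1 bound region cannot be told apart from the list. Merging within 1 kb left 457 regions of the 655 peaks, 188 in the left segment, 161 in the middle and 108 in the right.

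The right segment had the largest share of gaps under 1 kb and also the largest number of long ones. Gaps of 100 kb or more, called long stretches below, numbered 12 in the right segment and 5 in each other segment. They took up 47.3% of the right segment (2.75 Mb), 14.6% of the left and 10.3% of the middle. In the right segment they made up 6.7% of the gaps and 54.8% of the peak-free length between peaks.

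**Figure D3:**
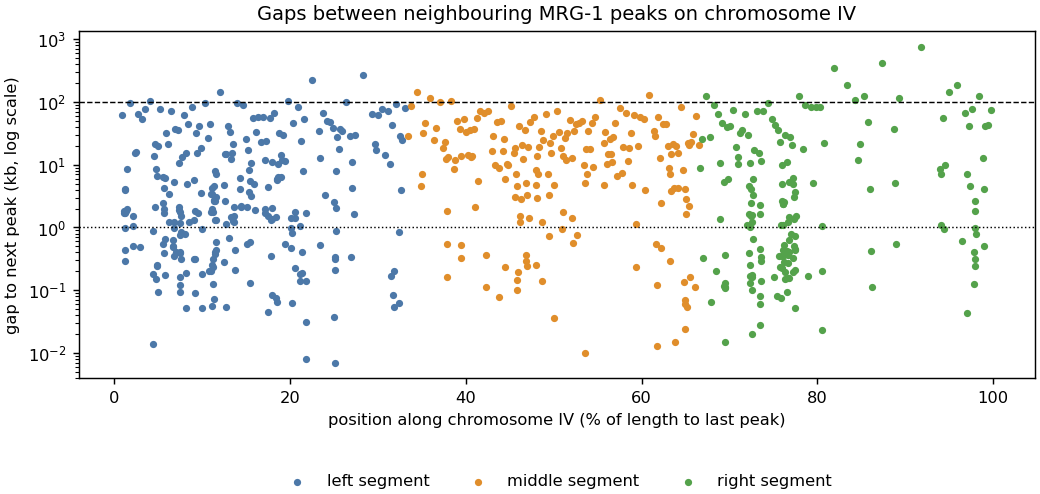
Length of each gap between neighbouring MRG-1 peaks on chromosome IV (log scale, kb) against the position of its centre, as % of the length to the last peak; the dashed line marks 100 kb and the dotted line 1 kb. Gaps under 1 kb are thinned out in the middle segment, where the median gap between peaks as deposited is 13609 bp. The 3 longest gaps, of 347 to 753 kb, are all in the right segment.

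Inside the right segment, the part before position 13539197 was more densely covered than the part after it. From the start of the right segment to 13539196, peaks lay at 63.7 per Mb and covered 25.6%, with 121 peaks in 1.9 Mb. From 13539197 to 17249679 there were 51 peaks in 3.71 Mb, at 13.7 per Mb and 7.32% covered. This sparse zone was taken to start at the first long stretch after the most covered bin and to end with the last long stretch, limits that were chosen after the values had been seen. With limits at stretches of 200 kb or more, also chosen after seeing the data, the zone was 2.29 Mb long with 15 peaks and 4.53% covered. With the wider limits, density was 4.64 times and covered share 3.49 times as high before the zone as within it. These folds describe a border chosen for its contrast and carry no test. Beyond the zone, the last 212 kb up to the last peak held 7 peaks and was 17.4% covered, with 4 of the 7 peaks scored 3100 or more.

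The left border of the zone was set at the start of a long stretch, so the absence of peaks just beyond it follows from its definition. The last 250 kb before it were 47.9% covered by 38 peaks. In steps of 50 kb towards the border, coverage was 46.1, 55.7, 43.8, 30.4 and 63.7%, with 8, 6, 7, 5 and 12 peaks. Beyond the border, the first 2 steps had no peak by definition, the next was 9.87% covered by 2 peaks, the one after had none, and the last was 26.3% covered by most of 1 broad peak. The 38 peaks of these 250 kb had a median width of 1736 bp and a median score of 249.795, and 23 of the 38 gaps there were under 1 kb. Of the 38 peaks, 16 were 1500 bp or less, 3 of them among the 12 in the step that ended at the border.

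As deposited, peaks inside the sparse zone were few but not small. Gaps under 1 kb were 55 of 120 before the zone and 15 of 52 inside it. Widths within these parts were not recalculated with close peaks joined, so the part played by splitting of regions was not tested. The median width of peaks inside the zone was 3404 bp, against 2524 bp in the right segment before it. Inside, 18 of 51 (35.3%) scored 3100 or more, against 19 of 121 (15.7%) before the zone. Peaks of 1500 bp or less were 7 of 51 (13.7%) inside and 36 of 121 (29.8%) before. In the part of the zone before the longest stretch, 13 of 27 peaks scored 3100 or more and the median width was 4414 bp. In the part of the zone after that stretch, 5 of 24 did so and the median width was 2583.5 bp. Within the zone, peaks as deposited were thus broader to the left of the longest stretch than to its right. Gaps under 1 kb were 6 of 27 on the left and 9 of 24 on the right. The contrast also depends on where the zone ends, since the 7 peaks beyond it had a median width of 5798 bp.

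The long stretches of the right segment began with 1 that stood apart from the zone, at 11695974 to 11819454 (123 kb). It lay between a peak of 2584 bp and one of 3364 bp, with 31.8% of the 250 kb to its left and 17.4% of the 250 kb to its right covered. After it came 1720 kb with 118 peaks and 27.1% covered, broken by no long stretch. The zone then opened with a stretch from 13539197 to 13664908 (126 kb), which ended at a peak of 2340 bp. The next 451 kb, to 14115891, held 12 peaks of 1277 to 15909 bp and were 14.4% covered, and ended with a peak of 8281 bp and the highest score of the right segment, 3138.71.

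From there to 16401885 only small islands of peaks remained. Over these 2.29 Mb there were 15 peaks, 10 of which scored 3100. The stretch from 14115892 to 14463353 (347 kb) ended at a single peak of 5819 bp, and that from 14469173 to 14656498 (187 kb) at a single peak of 2320 bp. The next, from 14658819 to 14765036 (106 kb), ended at an island of 3 peaks of 6623 to 14084 bp, all scored 3100, that spanned 63.3 kb and was 48% covered. After a stretch from 14828352 to 14953664 (125 kb), an island of 5 peaks spanned 97 kb and was 45.2% covered, and 4 of its peaks scored 3100. Its last 50 kb, before the stretch that followed, were 75.4% covered. Islands start and end at peaks, so their covered shares cannot be set against those of fixed bins.

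The second longest stretch, from 15050679 to 15467828 (417 kb), separated this island from one of 4 peaks of 1352 to 7546 bp over 62.8 kb, which was 30.7% covered. The stretch from 15530580 to 15646602 (116 kb) led to a single peak of 1861 bp with a score of 973.04, at 15646603 to 15648463. This peak alone broke a wider interval without peaks. It was followed by the longest stretch of the chromosome, from 15648464 to 16401885 (753 kb). The only covered sequence in the 100 kb to the left of that stretch was this 1 peak (1.86%).

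On the right side of the longest stretch, the first peak, at 16401886 to 16403268, was 1383 bp wide with a score of 139.32. The second, at 16411840 to 16417037, was 5198 bp wide with a score of 2076.46, the highest of both in an island of 7 peaks over 102 kb. The island was 17.4% covered, had a median width of 1836 bp and held no score of 3100. The first 50 kb were 20.3% covered and the first 250 kb 9.55%. A stretch from 16503401 to 16645705 (142 kb) then led to a single peak of 12622 bp with a score of 3100, and one from 16658328 to 16845589 (187 kb) to an island of 16 peaks over 281 kb. That island was 26% covered, and its last 50 kb were 76.2% covered. It was followed by the last long stretch, from 17126406 to 17249679 (123 kb), after which peaks went on to the end of the list.

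**Figure D4:**
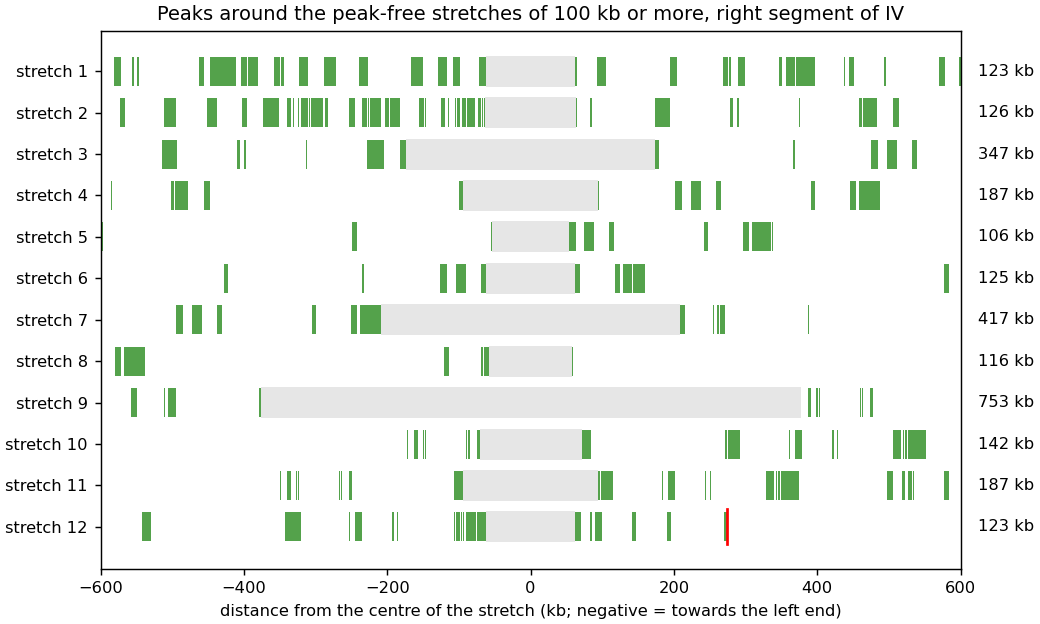
Peaks (green, drawn to scale) within 600 kb of the centre of each of the 12 peak-free stretches of 100 kb or more in the right segment of chromosome IV, in order from left to right along the chromosome; grey bars are the stretches, lengths stand at the right and the red line marks the end of the last peak. Stretch 2 opens the sparse zone and is preceded by 38 peaks within 250 kb, whereas around stretches 4 to 9 only small islands of peaks are left.

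Over all 12 stretches, the borders had no common form. The peak before a stretch was 1861 to 13566 bp wide (median 4952.5 bp), the peak after it 1383 to 12622 bp (median 4611.5 bp), and scores of 3100 or more were found in 6 of the 12 peaks before and 5 of the 12 after. A lone peak between neighbouring stretches counts on both sides. The 50 kb to the left of a stretch were 3.72 to 76.2% covered (median 32.5%) and those to the right 3.72 to 47.6% (median 19.1%). Within 250 kb the medians were 12.3 and 13.3%. Each window begins at the peak that bounds the stretch, which raises the covered share of short windows by construction. For the last stretch, the 250 kb window to the right was cut at the last peak. Windows of neighbouring stretches overlap, so these values are not independent.

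No long stretch elsewhere on IV reached the length of the 3 longest of the right segment. The 3 longest of the left segment ran from 4812475 to 5083749 (271 kb), from 3815597 to 4042080 (226 kb) and from 2033450 to 2177511 (144 kb). The 250 kb to their left were 34.6, 23.6 and 24.8% covered, and those to their right 10.3, 19.2 and 19.2%. The 3 longest of the middle segment ran from 5949004 to 6095117 (146 kb), from 10563769 to 10694980 (131 kb) and from 6206820 to 6321658 (115 kb). A second, milder thinning of peaks lay across the border of the left and middle segments. From 4812475 to 6740304 there were 39 peaks in 1.93 Mb, at 20.2 per Mb and 12.5% covered, with a median width of 4751 bp and 16 of 39 peaks scored 3100 or more. Of the 22 long stretches on IV, 4 were in this interval, and its limits too were chosen after seeing the values. It was set to start and end with a long stretch, of 271 and 102 kb, which lowers its density and covered share by construction.

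The same quantities on the other autosomes showed which features IV shared. A middle segment with wider peaks as deposited and more covered sequence than both arms occurred on all 5 autosomes. The median width of the middle segment was 6356 bp on I, 5599.5 bp on II, 6269.5 bp on III, 6260 bp on IV and 4371 bp on V. On IV the difference in width shrank once close peaks were joined, which was not examined on the other autosomes. The right segment was covered 0.598 times as much as the middle segment on I, 0.894 times on II, 0.788 times on III, 0.585 times on IV and 0.564 times on V. Arms with many long stretches were also not limited to IV. Long stretches took up 60.9% of the right segment and 42.2% of the left segment of V, and 45.3% of the left segment of II, against 47.3% of the right segment of IV. In the other arms of I, II and III they took up 7.64 to 23.1%, and in the left segment of IV 14.6%.

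The right segment of IV differed in the length of its longest stretch. That stretch, at 753 kb, compared with a longest of 399.8 kb on V, 268.5 kb on I, 242.6 kb on II and 147.9 kb on III. The second longest on IV, at 417 kb, was close to the longest on V. Over whole chromosomes, stretches of 250 kb or more numbered 4 on IV, 8 on V, 1 on I and 0 on II and III. Of those on IV, the stretch from 4812475 to 5083749 was in the left segment. Bins of 250 kb without a peak numbered 2 on IV and 5 on V, and there were none on I, II and III. With 1 library and peaks that lie in clusters, these differences between chromosomes were not tested.

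**Figure D5:**
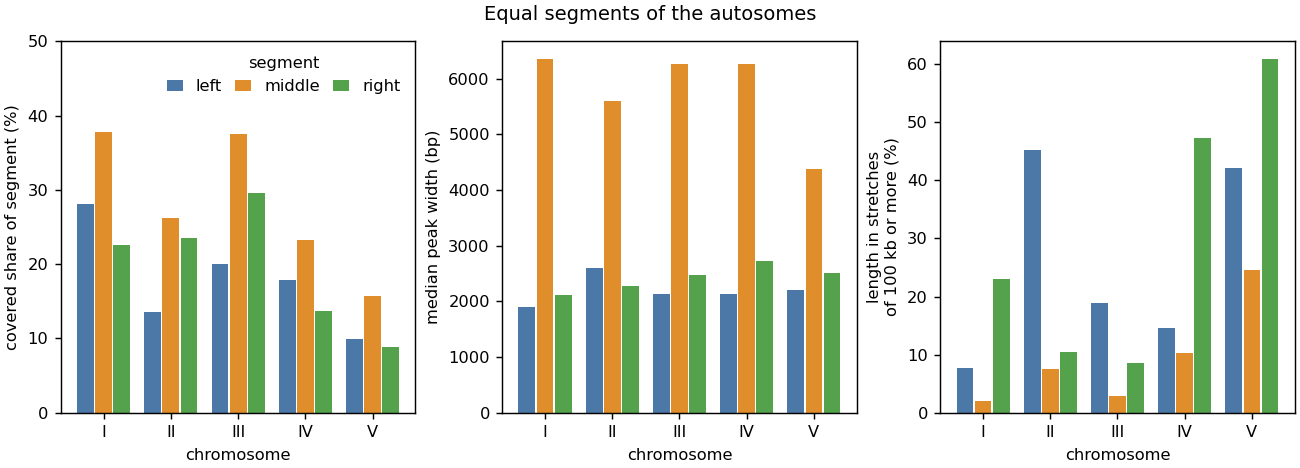
Covered share (left panel, %), median peak width (centre panel, bp) and share of length in peak-free stretches of 100 kb or more (right panel, %) for the segments of the 5 autosomes; each bar is 1 value from the single peak list. The middle segment has the highest median width on each autosome, for peaks as deposited. The right segment of IV, at 47.3% of its length, stands with the left segment of II and both arms of V in the share taken up by long stretches.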

How the data were processed

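MRG-1 ChIP and input libraries were made from chromatin fixed in 1% formaldehyde for 10 minutes, per the labels' protocols. BWA and the build ce10 are named in the submitters' processing notes. Per the file headers, coordinates are those of WormBase WS220, and the peaks name MACS as their source; what version and settings the caller had, and whether it used the input, is not given in the sources used here for this list. The deposited score is the authors' value per peak, with no stated scale; it was used to describe peaks, never to select them. Read depth is unknown from the list, and binding below the calling threshold cannot be seen. How splitting of broad regions by the caller affects numbers and widths was examined by merging close peaks.

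Peaks of chromosome IV were taken by name. Sample titles gave the groups, ChIP and input. Width was end minus start plus 1, covered bases were counted base by base, and stretches ran between neighbouring peaks. Intervals are 95% Clopper-Pearson for shares and binomial order-statistic intervals for medians. No test was run, since there was 1 library. The named regions were the 5 widest peaks of each segment, the 3 narrowest, the 5 most and 5 least covered bins, all stretches of 100 kb or more in the right segment with the peaks around and between them, and the 3 longest stretches of the other segments. Outside this rule, the longest runs, the sparse zone and the interval of milder thinning were chosen after their values had been seen. The members and rules were chosen with earlier results of these data known. Computations were tested on a simulated list and run in Python 3.11.15 with NumPy 2.4.6, SciPy 1.17.1, pandas 2.3.3 and Matplotlib 3.10.9.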

Additional observations from a re-analysis of the deposited data

How the results depend on the processing

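Of 52 recalculations, 25 stayed within the counting interval of the value or, for counts, within 1.5 times of it. Intervals of covered share count single bases and are narrow, so every recalculation of it fell outside. Merging peaks less than 1 kb apart gave shares of regions of 35.2% in the middle and 23.6% in the right segment, covered shares of 18.4% (left), 23.5% (middle) and 14% (right), and median widths of 3510, 7193 and 6206.5 bp. Merging within 5 kb gave shares of 35.4, 41.4 and 23.2%, which put the middle before the left, covered shares of 21.4, 25% and 15.4%, and widths of 7953, 9065 and 8330 bp. Merging fills gaps, so covered share can only rise by construction. Without the widest 5% (32 peaks), covered shares were 14.8, 17.7 and 12.2%. With segments of the length from the first to the last peak they were 18.1, 23.5 and 13.6%. Covered share kept the order middle, left, right in each of these. Long stretches of the right segment numbered 28 at 50 kb and 3 at 200 kb. They numbered 14 without peaks of 1500 bp or less, 13 without the widest 5% and 14 in the right 50% of the length. The median bin moved between 16.1 and 18% with other bins. For the sparse zone, settings chosen after seeing the data gave 4.53% with limits at stretches of 200 kb or more and 7.48% after merging within 1 kb. No paired analysis was possible because there was a single library of each kind, and no replicate could be left out. Chromosome length, a lower bound, read depth and unknown caller settings limit all values.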
